A study of Mus musculus with 17 samples.

Results

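Coding transcripts that were carried down with an antibody to MAEL well beyond an IgG background were followed through testis mRNA, ribosome footprints and small RNA in wild-type and Mael-/- mice. A transcript was a member when it had a coding size in the tables, reached at least 10 CPM (its count scaled to 1e6 coding counts of the library) in both anti-MAEL libraries of long RNA, and lay at least 6 times above IgG in both, with 0.5 CPM added to each value. The rule took 67 of 18286 coding rows, and 66 members remained after rows with the same count in all 17 libraries were joined. Among the 5987 rows with at least 10 CPM in both anti-MAEL libraries, 1.12% passed the IgG criterion. The members were thus chosen by their anti-MAEL and IgG levels in long RNA, and those levels are given as a description, with no test.

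MAEL (Maelstrom) is a germ cell protein that mice need for transposon silencing and for spermatogenesis. In mouse testis it is found with the machinery that turns long precursor RNAs into piRNAs, the small RNAs that guide PIWI proteins to their targets. Ribosome footprints are the stretches of mRNA shielded by ribosomes, so their number relative to mRNA reflects how heavily a transcript is translated.

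All libraries came from testis of the 129SvJae strain. The immunoprecipitates were made from wild-type testis only, with anti-Mael or with rabbit IgG and no size selection (2 and 1 libraries), or with anti-Mael and RNA of 50 to 150 nt or of 15 to 50 nt (1 library each). Total small RNA of 15 to 50 nt, footprints of 26 to 34 nt and mRNA each had 2 wild-type and 2 Mael-/- libraries, named a and b. The labels state neither age nor the deleted part of Mael, nor that replicate libraries were from different animals. The p-values then cover only how far these libraries differ from each other, which may be technical. Testis is a mixture of cell types, and fewer cells of a type and less RNA per cell cannot be told apart. The files pair no gene names with the transcripts, so neither the testis label nor the loss of Mael was checked through its genes, and members are given by transcript ID.

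Coding rows held 2949268 and 6576794 counts in the anti-MAEL libraries and 4831350 in the IgG library. They held 4130509 to 15372210 counts in mRNA, 1668197 to 5009051 in footprints and 424903 to 2357893 in small RNA. No pair of libraries of a group agreed within sampling noise, with a chi-square per degree of freedom of 3.30 to 51.5. Unless stated otherwise, CPM is relative to the coding counts of the same library. Counts in mRNA and footprints are given beside a coding size, and those with anti-MAEL beside the size of the whole transcript. Reads outside the coding part may thus be missing from mRNA, so its levels are not directly comparable with those of the anti-MAEL or small RNA libraries.

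Many members were near copies of one another. Linking members whose coding sizes lay within 3 of each other and whose counts in both anti-MAEL libraries lay within 1.5-fold left 40 sets, of which 11 held more than 1 member and took in 37 of the 66. This link was chosen after the data were examined. In 4 of the 11 sets all copies had identical counts in every mRNA and footprint library. How reads shared by several rows were counted is not stated, so values of near copies are uncertain and not independent. The largest set held 7 members with whole transcripts of 1866 to 1869 nt, and further sets of 6 held transcripts of 909 to 1452 nt and of 837 to 870 nt. Small RNA told some copies apart where long RNA did not. The pair of 4968 nt transcripts stood at 1542 CPM with anti-MAEL in both rows, while their mean wild-type small RNA was 186.9 CPM in one and 1085 CPM in the other.

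The highest anti-MAEL levels in CPM were at ENSMUST00000062637 and its near copy ENSMUST00000169045, and at ENSMUST00000107981. For ENSMUST00000062637 (7232 nt) the level was 3771 and 2395 CPM in the anti-MAEL libraries a and b and 305.1 CPM with IgG. For ENSMUST00000107981 (3348 nt) it was 3312 and 2065 CPM against 83.8 CPM with IgG. Both anti-MAEL libraries lay far above IgG at each, and library a was above b, as at 62 of the 66 members. Per length, the order was different, and ENSMUST00000098130, of 672 nt, had the densest anti-MAEL signal of all members at 1939 CPM per kb, against 426.3 CPM per kb at ENSMUST00000062637.

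The widest separation from IgG was at the pair ENSMUST00000084677 and ENSMUST00000098119, 1710 nt each, which shared their counts in long RNA. Their level was 2641 and 1516 CPM with anti-MAEL against 37.9 CPM with IgG, and the smaller of the ratios was 39.5. Next came ENSMUST00000098130, with 1681 and 925 CPM against 31.5 CPM and a smaller ratio of 28.95. Over all members the smaller ratio ran from 6.11 to 39.5 around a median of 10.6, and it was at least 10 in 40 members and at least 20 in 14. In 4 members the IgG library held 3 counts or fewer, and in 50 it held 10 or more. Where the IgG counts were few, the ratio rests on counting error in 1 library.

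The threshold cut through a continuous range. Just inside lay ENSMUST00000094705, with a smaller ratio of 6.11, and ENSMUST00000088248, with 6.42. Just outside lay ENSMUST00000106888, with 5.91, and ENSMUST00000030893, with 5.76. At 4 times IgG there would be 97 members and at 10 times 40, and judged on anti-MAEL library a alone there would be 98.

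**Figure D1:**
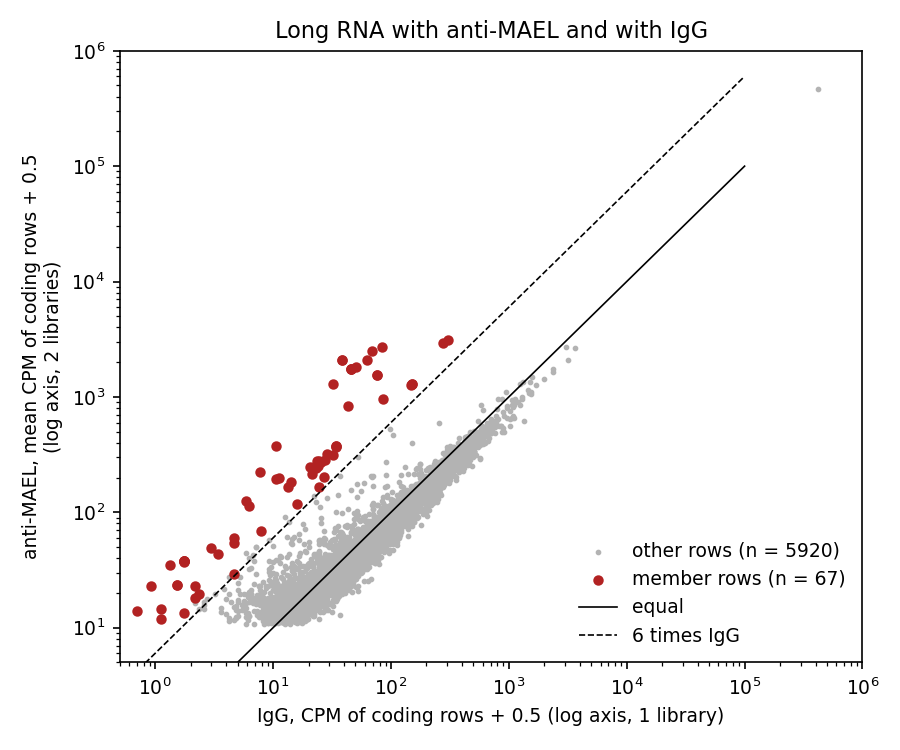
Mean anti-MAEL level of 2 libraries (vertical, CPM of coding rows plus 0.5, log axis) against the IgG level of 1 library (horizontal, same scale) for the 5987 rows with at least 10 CPM in both anti-MAEL libraries. The 67 member rows (red) lie above the dashed line of 6 times IgG, and a few other rows above it missed the threshold in 1 library.

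The members were rich in small fragments in libraries that the rule did not use. In the 50 to 150 nt anti-MAEL library the median member stood at 259.9 CPM per kb of transcript, against 6.35 for the other 5920 rows with at least 10 CPM in both long anti-MAEL libraries. At 15 to 50 nt the medians were 381.5 and 0.588 CPM per kb. Above the 95th percentile of the other rows, taken in CPM, lay 47 of the 66 members at 50 to 150 nt and 39 at 15 to 50 nt. Each size class had 1 library and no IgG of its size, so no test was made, and enrichment by the antibody cannot be told apart from a high level in the RNA it was added to.

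Total small RNA, made without any antibody, showed the same contrast. With every near copy counted, the median member had 318.8 CPM per kb in wild type and 247.2 in Mael-/-. The other rows had 5.76 and 6.85. Small RNA was spread very unevenly over the members. The member with the most was ENSMUST00000100355 (3389 nt), with 168857 and 157798 CPM in wild type and 169659 and 139340 CPM in Mael-/-. It alone took 57.9% of the members' summed mean CPM in wild-type small RNA, with every near copy counted. The genotypes overlapped at this transcript, and with a log2 fold change of -0.20 it missed the threshold (Benjamini-Hochberg adjusted p = 0.842 by edgeR's quasi-likelihood test over all features, called edgeR from here on). Its mRNA stayed under 1 CPM in every library and its footprints were at 0 in all 4, where a count of 0 allows up to 0.599 to 1.798 CPM. At the other end, 3 members had no small RNA count in either wild-type library.

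**Figure D2:**
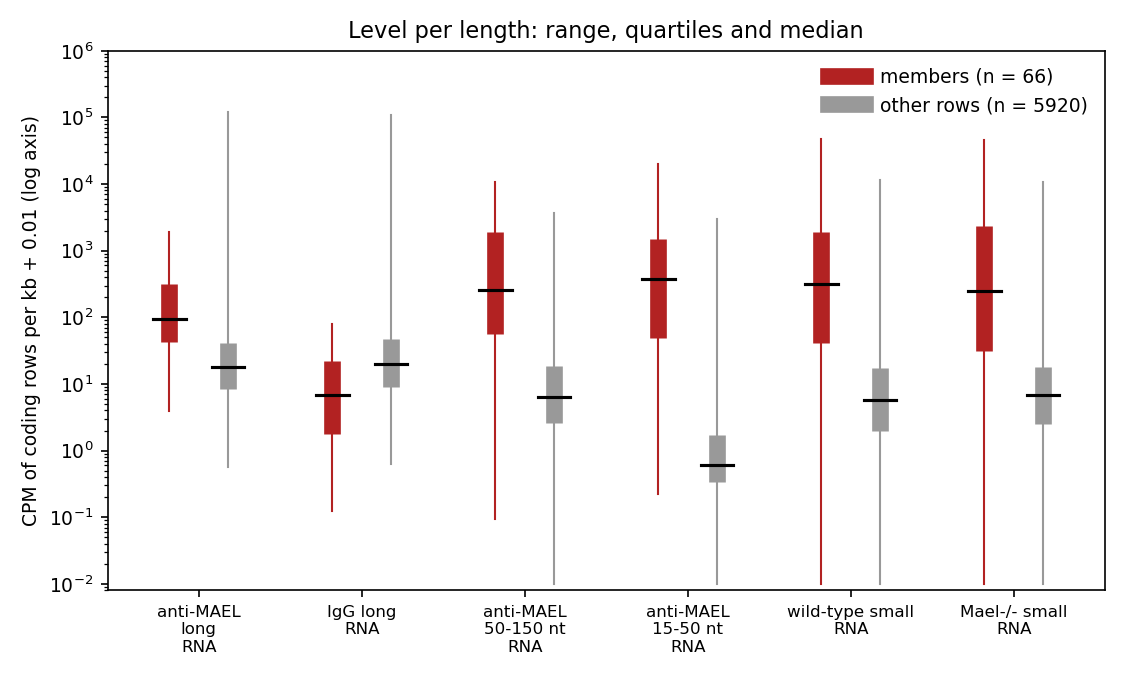
Level per length (CPM of coding rows per kb of transcript plus 0.01, log axis) in the long and size-selected immunoprecipitates and in total small RNA, as range (thin line), quartiles (thick bar) and median (black) over the 66 members (red) and the other 5920 rows (grey). The members' medians in small RNA and in size-selected anti-MAEL RNA lie above the upper quartile of the other rows, while their IgG median, 6.87, lies below the other rows' 20.1.

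The members' mRNA was scarce and their footprints scarcer. The rule favoured rows with little IgG signal, with a median of 21.1 CPM against 44.7 CPM in the other rows. Whether this favoured scarce mRNA was not tested. Relative to coding size, the median member had 5.20 CPM per 100 units in wild-type mRNA against 14.4 for the other rows. In wild-type footprints it had 0.783 against 9.25. Rows with a coding size under 50 were left out here, so the other rows numbered 5847. The coding sizes in the tables reach at most 33.2% of the transcript's length, which is the size that a number of codons would have, but the tables do not state their unit. The log2 ratio of footprints to mRNA in wild type, with 0.5 CPM added, had a median of -2.47 over the members and -0.54 over the other rows. Of the 66 members, 24 stayed under 1 CPM in wild-type footprints and 13 had no footprint count in wild type. In the wild-type libraries a count of 0 allows up to 0.599 CPM in a and 0.911 CPM in b.

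Some members had more footprints than mRNA in CPM, while the upper quartile of the members' log2 ratio was -0.09. The one with the most wild-type footprints was ENSMUST00000107022 (3695 nt), with 69.3 and 55.3 CPM in footprints and 14.4 and 13.8 CPM in mRNA. Footprints were also above mRNA, on the CPM scale, in the set of 6 transcripts of 837 to 870 nt, which had 8.58 and 9.42 CPM in wild-type footprints and 1.496 and 1.337 CPM in mRNA.

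The first genotype comparison asked whether the mRNA of the members changed without MAEL. In all, 27 of the 55 members that passed the low-count filter fell in Mael-/- testis and 1 rose, where 17.7% of all 11181 transcripts tested fell and 15.2% rose (edgeR quasi-likelihood, Benjamini-Hochberg adjusted p under 0.05). Counting each set of near copies once, 14 of 29 fell and 1 rose. The 11 members that did not pass the filter had a mean of at most 1.31 CPM in wild-type mRNA and at most 2.03 CPM in Mael-/-. Over all 66 members, with no filter, both Mael-/- libraries lay below both wild-type libraries in 32 of the 64 with a count and above them in 19, against 22.2% and 45.1% of the 15821 coding rows with a count.

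The median log2 fold change of the tested members was -1.23, against 0.21 over all transcripts tested. The 27 that fell lay between -2.98 and -1.23, and 21 of the 27 with no call lay above 0. Without a filter the median over all 66, as a log2 ratio with 0.5 CPM added, was -0.05, against -0.13 over the other rows. In that ratio 34 members lay below 0 and 30 above. In the edgeR fit with no filter, which took in 64 members, the median was -0.63, against 0.26 over all transcripts. Relative to library totals the split was 24 lower and 4 higher, against 13.1% and 29.4% of all transcripts tested, and the median of all transcripts moved from 0.21 to 0.49.

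The deepest fall was shared by ENSMUST00000084677 and ENSMUST00000098119, the pair with the widest separation from IgG. Their mRNA stood at 78.8 and 74.7 CPM in wild type and at 11.3 and 12.3 CPM in Mael-/-, so the genotypes were far apart. The log2 fold change was -2.98 ± 0.258 (SE, with an adjusted p of 0.0330 by edgeR). The member with the next highest anti-MAEL level after ENSMUST00000062637 and its copy, ENSMUST00000107981, went from 91.5 and 96.8 CPM to 18.8 and 22.5 CPM, and its log2 fold change was -2.47 ± 0.255 (SE, with an adjusted p of 0.0330 by edgeR). The densest one, ENSMUST00000098130, went from 34.1 and 43.5 CPM to 5.74 and 11.4 CPM, a log2 fold change of -2.47 ± 0.403. In the set of 6 transcripts of 909 to 1452 nt, all of which fell, wild-type levels were 44.6 to 58.5 CPM and Mael-/- levels 6.96 to 15.0 CPM.

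As a description, the members that fell had more anti-MAEL signal over IgG than those with no call. Their mean anti-MAEL level had a median of 1286 CPM and their smaller ratio over IgG a median of 18.8, against 163.8 CPM and 9.67 for the 27 tested members with no call. Both measures come from the libraries that chose the members, and their medians count every near copy. The 27 that fell lay in 14 sets, and so did the 27 with no call. In wild type, the members that fell had few footprints for their mRNA. Their median log2 ratio of footprints to mRNA was -3.42, against -0.85 for those with no call. Wild-type mRNA enters both this ratio and the call, so they are not independent. Its median was 38.8 CPM in the members that fell and 13.4 CPM in those with no call. These medians also count every near copy.

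The single member that rose in mRNA was ENSMUST00000107022, the one with most footprints in wild type. Its mRNA was 14.4 and 13.8 CPM in wild type and 64.9 and 39.5 CPM in Mael-/-, with no overlap and a wider spread in the Mael-/- libraries. The log2 fold change was 1.61 ± 0.321 (SE, with an adjusted p of 0.0330 by edgeR). At ENSMUST00000062637 the mRNA level was 171.3 and 337.3 CPM in wild type and 451.6 and 1188 CPM in Mael-/-. The genotypes did not overlap there, but libraries of 1 genotype lay far apart, and the log2 fold change of 1.41 ± 0.534 missed the threshold (adjusted p of 0.0806 by edgeR). The set of 7 transcripts of 1866 to 1869 nt ran from 60.6 to 113.0 CPM in wild type and from 56.7 to 170.2 CPM in Mael-/-, and none of them passed the test.

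In the edgeR fit of all 4 libraries every mRNA call lay close to the threshold, since the smallest adjusted p over all transcripts was 0.0330. This depended on the fit: for ENSMUST00000084677 the adjusted p ran from 7.34e-15 with DESeq2 to 0.240 by edgeR without wild-type library b, while its log2 fold change stayed between -3.14 and -2.70. Without wild-type mRNA library a, or without b, edgeR called 0 members, and also 0 of all 11701 and 11577 transcripts tested. Before adjustment 25 members were lower and 3 higher by a p under 0.05 in each case, while 3290 and 2356 of all transcripts passed that mark in either direction. DESeq2 on all libraries called 24 members lower and 1 higher, against 20.4% and 7.74% of all transcripts. Without Mael-/- library a 26 members were lower and 3 higher, where 2728 and 1349 of all 11748 transcripts were. Without Mael-/- b it was 22 and 1, where 1404 and 693 of all 11639 were.

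**Figure D3:**
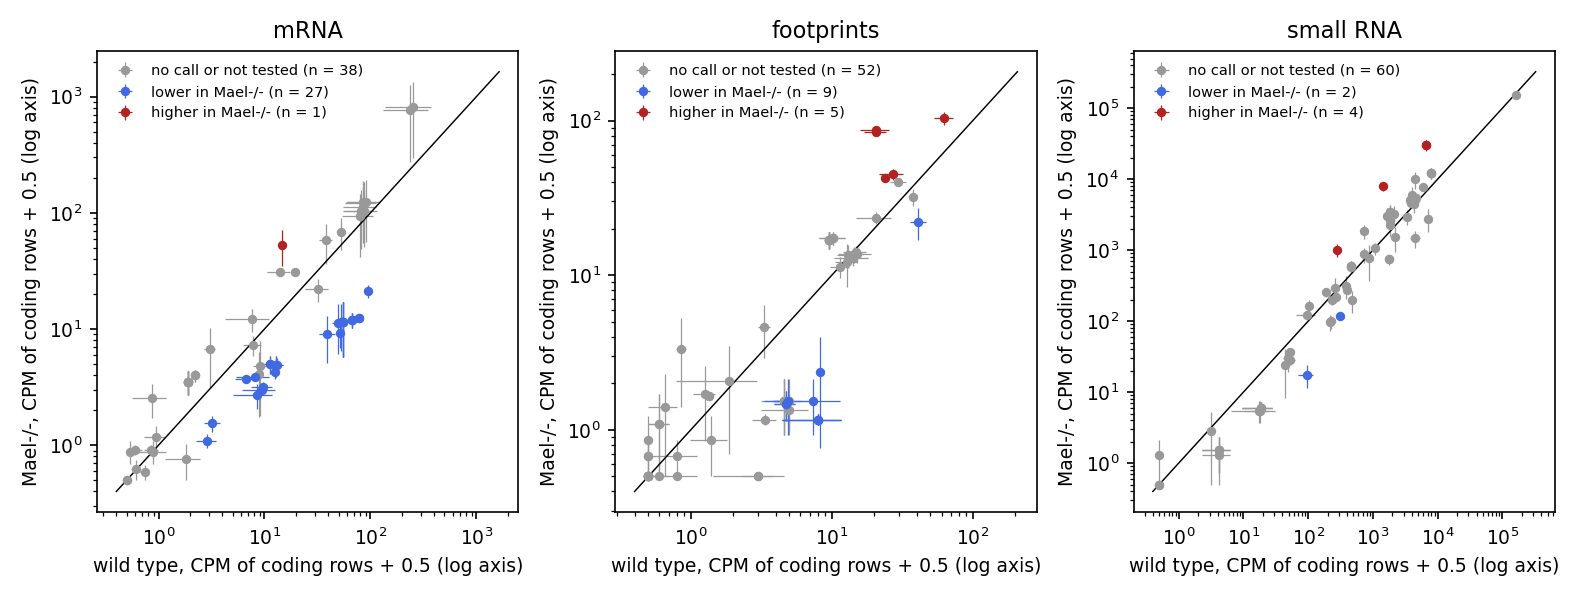
Mean level in Mael-/- (vertical) against wild type (horizontal) for the 66 members in mRNA, footprints and small RNA, in CPM of coding rows plus 0.5 on log axes, with bars of 1 SD over 2 libraries cut at 0. Members called lower (blue) in mRNA form a band below the line of equality, while members with no call (grey) lie mostly near or above it, and in small RNA members lie on both sides of the line.

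Ribosome footprints were sparse for the members, and 35 of 66 passed the low-count filter. Of these, 9 were lower and 5 higher in Mael-/-, against 20.3% and 11.3% of the 9783 transcripts tested (edgeR quasi-likelihood, adjusted p under 0.05). With each set counted once, 6 of 16 were lower and 4 higher. Both Mael-/- libraries were below both wild-type libraries in 18 of the 56 members with a count and above them in 17, where the 14054 coding rows with a count gave 25.5% and 34.1%. Relative to library totals 8 were lower and 11 higher, against 17.8% and 17.7% of the transcripts tested. DESeq2 called 4 lower and 2 higher, against 14.7% and 3.80%.

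Of the 9 members that fell in footprints, 8 were among the 27 that fell in mRNA, and the ninth, ENSMUST00000030453, had a negative mRNA change that missed the threshold. For ENSMUST00000030453 (2106 nt) the footprint level was 44.5 and 36.8 CPM in wild type and 17.9 and 25.2 CPM in Mael-/-, with no overlap. Its log2 fold change was -1.06 ± 0.232 (SE, with an adjusted p of 0.00488 by edgeR), and in mRNA -0.82 ± 0.319 (adjusted p = 0.0849). The pair led by ENSMUST00000084677 fell in footprints from 4.79 and 3.65 CPM to 0.731 and 1.20 CPM. These levels are 2 counts in each Mael-/- library, and the log2 fold change was -2.28 ± 0.704 (SE, with an adjusted p of 0.0286 by edgeR).

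The footprint rises were led by ENSMUST00000062637 and its copy ENSMUST00000169045. The first went from 17.6 and 22.8 CPM in wild type to 80.8 and 86.9 CPM in Mael-/-, and the genotypes did not overlap. Its log2 fold change was 1.96 ± 0.186 (SE, with an adjusted p of 1.57e-05 by edgeR). The footprint level of ENSMUST00000107022 went from 69.3 and 55.3 CPM to 110.4 and 96.5 CPM, a log2 fold change of 0.62 ± 0.148 (SE, with an adjusted p of 0.00806 by edgeR). At ENSMUST00000009425 (708 nt) it went from 24.2 and 22.8 CPM to 42.0 in both Mael-/- libraries, a log2 fold change of 0.73 ± 0.198 (SE, with an adjusted p of 0.0158 by edgeR).

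The footprint counts moved with single libraries. Without wild-type library b, 2 of 32 members tested were lower and 2 higher, beside 1630 and 690 of all 10048 transcripts. Without wild-type a it was 5 and 4 of 36, beside 1923 and 770 of 10242. Without Mael-/- a 5 and 2 of 41 were lower and higher, beside 1963 and 750 of 10393, and without Mael-/- b 6 and 5 of 41, beside 1848 and 775 of 10395.

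Changes in mRNA and footprints ran in parallel across the members. As a description over 66 members, the log2 ratios of the 2 assays had a Pearson correlation of 0.794 and a Spearman correlation of 0.737, and 0.753 and 0.695 over 1 row for each of the 40 sets. Members share reads within a set, and low counts lie near 0 in both. For the change in the ratio of footprints to mRNA, 0 of the 54 members tested were called in either direction, as were 0.00% of the 11427 transcripts tested (edgeR, where the smallest adjusted p was 0.602). Before adjustment 3 members were higher and 1 lower by a p under 0.05, beside 915 of all transcripts in either direction. DESeq2 also called 0 members, and 0.429% of all transcripts higher and 0.00875% lower. At ENSMUST00000107022, the member that rose in both assays, the ratio changed by -0.92 ± 0.414 on the log2 scale and missed the threshold (SE, with an adjusted p of 0.602 by edgeR).

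**Figure D4:**
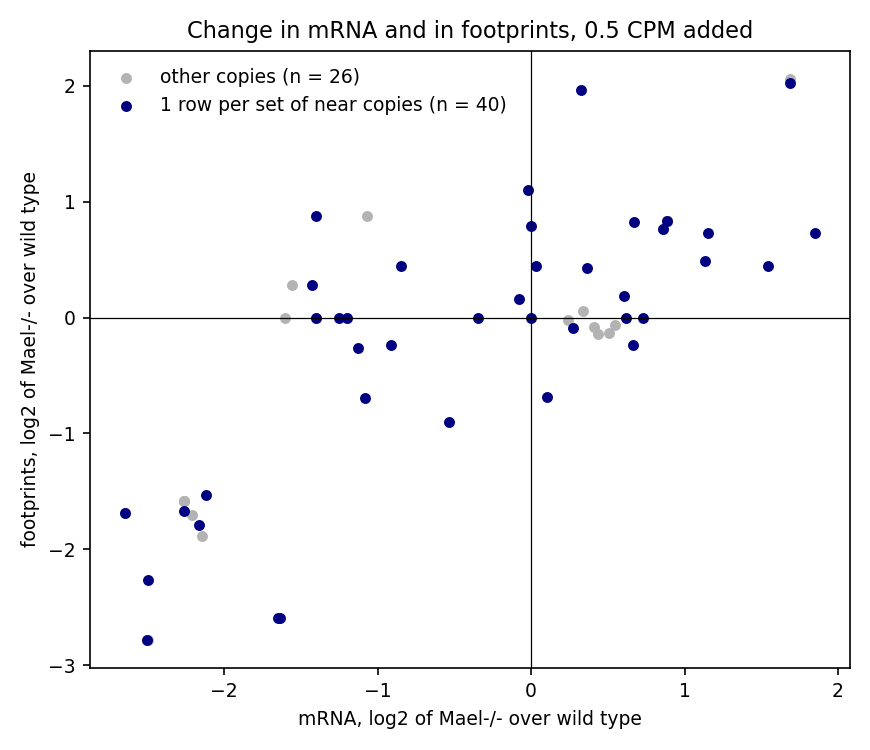
Log2 of Mael-/- over wild type in footprints (vertical) against mRNA (horizontal) for the 66 members, from mean CPM of coding rows with 0.5 added. The 40 rows that stand for the sets of near copies are dark, and members with log2 mRNA ratios below -2 also had footprint ratios below -1.

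Small RNA of the members went both ways without MAEL, and few members were called. Of 58 members tested, 4 were higher and 2 lower, against 3.82% and 3.49% of the 9906 features tested (edgeR quasi-likelihood, adjusted p under 0.05, with TMM scaling). By an edgeR p under 0.05 before adjustment, 15 members were lower and 5 higher, beside 2924 of all features in either direction. With 1 row per set, 11 were lower and 4 higher. DESeq2 called 4 higher and 7 lower, against 4.26% and 6.17%. The 4 members that rose lay in 3 sets. The median log2 fold change was 0.07, against 0.15 over all features tested, and its sign depended on the near copies and the scaling: it was -0.29 with 1 row per set and -0.05 with DESeq2 size factors. Both Mael-/- libraries lay above both wild-type libraries in 26 of the 64 members with a count and below them in 25, against 26.1% and 14.6% of the 13333 coding rows with a count. Members with falling mRNA did not share a direction in small RNA, as 12 of the 27 had a log2 fold change below 0 and 15 above, with 1 called lower and 0 higher. Across the 66 members the correlation between mRNA and small RNA changes was -0.135 (Pearson) and -0.253 (Spearman), as a description, and over 1 row for each of the 40 sets it was 0.010 and -0.060.

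The largest rise was at ENSMUST00000166737 (4301 nt). Its small RNA stood at 1428 and 1431 CPM in wild type and at 8933 and 7255 CPM in Mael-/-, and its log2 fold change was 2.38 ± 0.509 (SE, with an adjusted p of 0.0238 by edgeR). It had 0 counts in every mRNA and footprint library, while anti-MAEL carried 395.4 and 232.0 CPM of it against 31.7 CPM with IgG. The mRNA and footprint counts are given beside a coding size of 318, and the anti-MAEL counts beside the whole 4301 nt. At ENSMUST00000169045 small RNA went from 6636 and 6630 CPM to 33687 and 26751 CPM, a log2 fold change of 2.07 ± 0.547 (SE, with an adjusted p of 0.0458 by edgeR). This transcript was thus called higher in both small RNA and footprints.

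The largest fall was at ENSMUST00000009425, from 75.9 and 113.0 CPM to 21.6 and 12.7 CPM, a log2 fold change of -2.43 ± 0.493 (SE, with an adjusted p of 0.0204 by edgeR). Its footprints rose, as described above, while its mRNA, 19.3 and 18.3 CPM against 30.8 and 29.5 CPM, missed the threshold (adjusted p of 0.243 by edgeR). At ENSMUST00000097044 (3033 nt) small RNA fell from 318.9 and 313.0 CPM to 118.7 and 117.6 CPM, a log2 fold change of -1.55 ± 0.401 (SE, with an adjusted p of 0.0444 by edgeR). Its mRNA fell as well, from 5.66 and 9.65 CPM to 3.31 and 3.39 CPM (log2 fold change -1.45 ± 0.417, SE, with an adjusted p of 0.0440 by edgeR).

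The balance of these small RNA calls followed the scaling. Coding rows took 5.39% ± 0.110 of all small RNA counts in the wild-type libraries and 11.5% ± 2.19 in the Mael-/- ones (SD, n = 2). Relative to library totals, 34 of the 58 members were higher and 0 lower, against 24.7% and 1.40% of all features (edgeR quasi-likelihood), and the median of all features moved from 0.15 to 1.42. On that scale ENSMUST00000009425 had a log2 fold change of -1.38 (adjusted p = 0.106) and ENSMUST00000097044 of -0.33 (adjusted p = 0.406), and neither passed the test, while the rises at ENSMUST00000166737 and ENSMUST00000169045 did. Single libraries moved these counts. If wild-type a was left out, 0 members were higher and 1 lower, beside 27 and 51 of all 10473 features. The members' counts were the same without wild-type b, beside 128 and 204 of 13101. Without Mael-/- a, 3 members were higher and 13 lower, beside 396 and 1067 of 10232, and without Mael-/- b 16 and 7, beside 1218 and 672 of 11802.

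**Figure D5:**
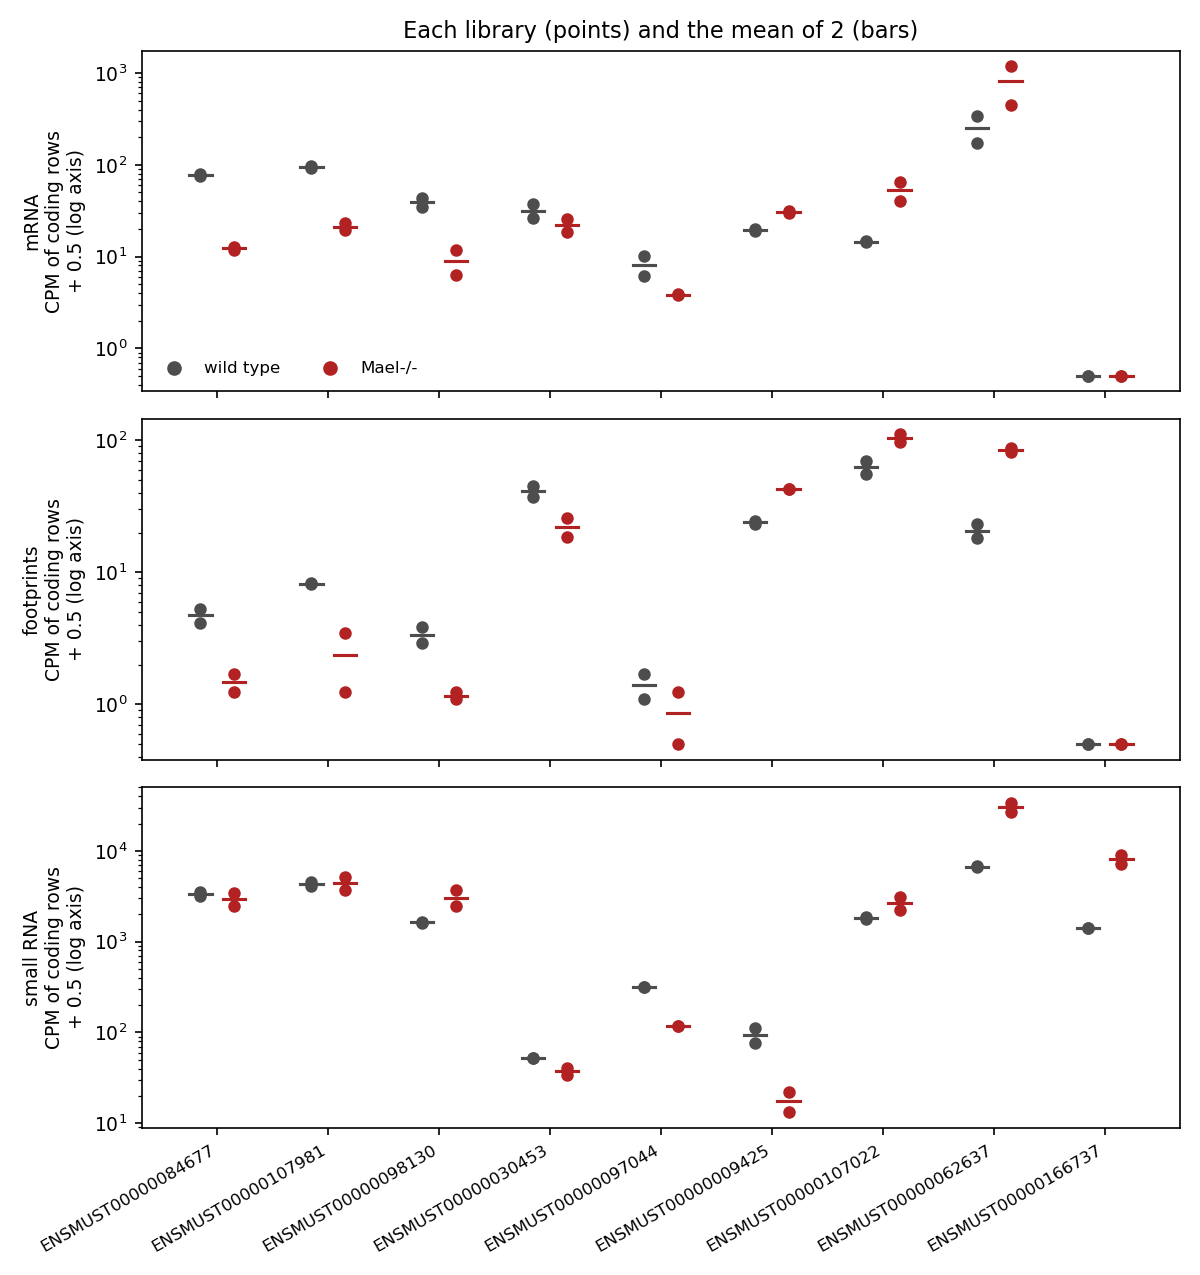
Levels of 9 members named in the text in each wild-type (grey) and Mael-/- (red) library of mRNA, footprints and small RNA, in CPM of coding rows plus 0.5 on log axes, with the mean of 2 libraries as a bar. The 3 members on the left are lower in mRNA and footprints of both Mael-/- libraries while their small RNA overlaps the wild-type range or lies above it.

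Side by side, the named members had different courses. The pair led by ENSMUST00000084677 had mRNA but few footprints, abundant small RNA, and lower mRNA in Mael-/-. The pair led by ENSMUST00000062637 had the most wild-type mRNA of the members and, in Mael-/-, more footprints and more small RNA. Its mRNA was also higher in both Mael-/- libraries, but that rise missed the threshold, as did the change in its footprint to mRNA ratio. ENSMUST00000100355 and ENSMUST00000166737 had abundant small RNA with almost no mRNA or footprint counts. Those counts are given beside coding sizes of 166 and 318, so long RNA from the rest of these transcripts may not have been counted.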

How the data were processed

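Groups came from the sample titles. Each deposited file gives raw, unscaled read counts of 1 library, per the file headers and the values. Tools listed in the submitters' processing notes, without roles, are TopHat2 2.0.7, Bowtie2 2.0.6 and CASAVA 1.8, with build mm9. Per the labels' protocols, long-RNA libraries keep no strand, while small RNA and footprint libraries do. How reads that match several rows, overlapping genes or antisense genes were counted was not given in the sources used here. Thus near-identical and overlapping rows are uncertain. In the mRNA and footprint tables only rows with a coding size hold counts above 0.

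Whole tables were fitted with edgeR 4.0.16 in R 4.3.3 (quasi-likelihood test, TMM scaling, filterByExpr, Benjamini-Hochberg adjustment over all features, threshold 0.05), with genotype as the only term, or its interaction with assay for the footprint to mRNA ratio. SE is the log2 fold change divided by the square root of F. For small RNA, 1 entry stood for each of 214 piRNA loci. DESeq2 1.42.0 was an alternative, as were other scalings, no filter, a replicate block and leaving out libraries. The fits were tested on simulated counts. Python 3.11.15 with pandas 2.3.3, numpy 2.4.6 and scipy 1.17.1 did the rest.

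Members and lists were chosen with earlier results of these data known. Named members were the 3 with the highest anti-MAEL CPM, the 3 with the highest smaller ratio over IgG, up to 2 called members per direction and comparison with the largest change, among those with no overlap and a mean of at least 5 CPM, those at the threshold, and those with the most wild-type small RNA and footprints. No transcript ID matched the reference tables, so gene lists were not counted and no sequence is shown. Floors for a count of 0 are 3 counts in each library, and floors cover counting error only, because reads are not independent molecules.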

Additional observations from a re-analysis of the deposited data

How the results depend on the processing

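In mRNA, 27 members were lower and 1 higher. The lower count was 14 with 1 row per set of near copies. The higher count was 4 with library totals. With no filter 29 were lower and 3 higher, beside 2515 and 2110 of all 15821 transcripts. The replicate block gave 30 lower and 4 higher, beside 2654 and 2766 of 11181. Leaving out 1 library gave 0 to 26 lower and 0 to 3 higher. In footprints, 9 were lower and 5 higher, and 11 were higher with library totals. DESeq2 gave 4 lower and 2 higher. The replicate block gave 5 lower and 5 higher, beside 1723 and 771 of all 9783 transcripts. Leaving out 1 library gave 2 to 6 lower and 2 to 5 higher. In small RNA, 2 were lower and 4 higher. DESeq2 size factors gave 1 lower and 1 higher, beside 347 and 226 of all 9906 features. Library totals gave 0 and 34, beside 139 and 2449. No filter gave 1 and 0, beside 248 and 233 of 24188. The replicate block gave 18 lower and 9 higher of 58 members, beside 1754 and 2318 of 9906. The DESeq2 test gave 7 lower, beside 611. Leaving out 1 library gave 1 to 13 lower and 0 to 16 higher. For the footprint to mRNA ratio, 0 members were called under every alternative. The number of members was 40 at a threshold of 10 times IgG and 40 with 1 row per set of near copies, and the other rule settings gave 59 to 98. Of 93 values recomputed for the named calls, 74 kept their direction and stayed past the threshold, 19 kept only the direction and 0 reversed. The cause of these shifts was not tested.

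The libraries share only a letter, and nothing says that it pairs them. Deviations of same-lettered libraries correlated at 0.204 in mRNA, 0.584 in small RNA and -0.153 in footprints. A crossed replicate block in footprints, added after seeing the data, gave 12 lower and 5 higher, beside 2210 and 1450 of all 9783 transcripts. The low-count filter left out 31 members in footprints, 11 in mRNA and 8 in small RNA, so changes of those members were not tested.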
